A study of Mus musculus with 18 samples.

Results

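The response of p110g-/- macrophages to interferon gamma (IFNg) together with lipopolysaccharide (LPS) was measured in 6 of the 18 RNA sequencing libraries of the series. Its members are the 3 p110g-/- libraries labelled IFNg/LPS and the 3 p110g-/- libraries labelled M-CSF. The 15627 of 16474 genes that reached a value of 10 in at least 3 of all 18 libraries were tested. The cells were macrophages grown from the bone marrow of C57BL/6 mice aged 8 weeks that carry the genotype p110g-/-, the loss of p110gamma, which is the catalytic subunit of phosphoinositide 3-kinase (PI3K) gamma encoded by Pik3cg. M-CSF, the growth factor that drives marrow cells into macrophages, was given at 50 ng/ml for 6 days. For the following 24 h all 6 cultures received 20 ng/ml M-CSF, so the groups differ by IFNg and by 100 ng/ml LPS, which were added together and cannot be told apart. The wild type (WT) libraries of the same 2 treatments, 3 of each, serve below as a comparison. The IL-4 libraries of the series enter the gene filter, the shared estimate of the spread and the checks made over all libraries or groups. The labels name no Cre, promoter or construct for the p110g-/- allele and do not say whether numbers 1 to 3 are separate mice or cultures. The p-values therefore measure the spread between these libraries, which may be technical.

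IFNg binds a receptor that signals through the Janus kinases JAK1 and JAK2 to STAT transcription factors, which bind GAS elements in gene promoters. LPS, a component of the outer membrane of Gram-negative bacteria, is passed by CD14 to the receptor TLR4 and its partner MD-2, and signals through MYD88 to NF-kB and through TICAM1 to interferon regulatory factors and type I interferon. Given together they produce the state often called classical or M1 activation, known for nitric oxide, inflammatory cytokines, antigen presentation and a shift toward glycolysis. PI3K gamma is activated downstream of G protein-coupled receptors in myeloid cells and produces a membrane lipid that recruits the kinase Akt.

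The deposited values are normalised signals, in which the reads of each gene were divided by a factor common to the library. Library depth was 40081565, 42327865 and 49875553 reads in M-CSF and 53952990, 64003741 and 62635868 reads in IFNg/LPS, for libraries numbered 1, 2 and 3, the order in which values are given throughout. A gene at 0 in 1 of these libraries may still have had an expected count of up to 3 reads, a signal of 2.85 to 3.49, and genes with a group mean at or under that level are described by level without a fold change. These limits cover counting error only. The summed signal was 46073644.5 to 47388884 in the M-CSF libraries and 60750187.5 to 62748432 in the IFNg/LPS libraries. In bulk RNA, fewer cells of a type and less RNA per cell cannot be told apart.

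Pik3cg, the targeted gene, had signals of 1888, 2046 and 1966 in p110g-/- M-CSF and 3691, 1410.5 and 2037 in p110g-/- IFNg/LPS. WT libraries had 5308, 5330.3 and 4994 in M-CSF and 3559.5, 2309 and 2604 in IFNg/LPS. The labels do not say which part of the gene the allele lacks. All 3 p110g-/- M-CSF libraries lay under all 3 WT M-CSF libraries, whereas the library labelled p110g-/- IFNg/LPS number 1 lay above the WT libraries of the same treatment. On the third principal component of all 18 libraries, which held 3.08% of the variance, that library scored -24.5. The other p110g-/- libraries scored from -26.9 to -14.2 there and the WT libraries from 9.11 to 29.2. It differed by more than 1 on the log2 scale from number 2 in 8.40% of tested genes and from number 3 in 6.39%, against 3.10% between numbers 2 and 3. Number 1 stood apart in the other 5 groups of the series as well, with 4.13 to 8.47% of genes against 2.69 to 3.53% between numbers 2 and 3. Counts are therefore also given without it. The labelled cell type was checked against macrophage genes: Csf1r, the M-CSF receptor, had 118563, 112151 and 110660 in M-CSF and 55977, 63662 and 56269 in IFNg/LPS, and Emr1, which encodes F4/80, had 81988, 70695 and 91155 and 173970.4, 125314 and 135458.

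The response reached most of the transcriptome. At an adjusted p under 0.05 (limma, Benjamini-Hochberg over all tested genes), 11408 of 15627 genes, 73.0%, differed between the 2 treatments. Of these, 5661 were higher (36.2% of tested genes) and 5747 lower (36.8%) in IFNg/LPS, and the median log2 fold change over all tested genes was -0.01 with a median standard error of 0.14. The 3 libraries of 1 group lay entirely above the 3 of the other for 75.2% of genes. With every library scaled to its own summed signal instead, the median moved to -0.41 and the split to 3517 higher and 8283 lower, 29.8% and 70.2% of calls against 49.6% and 50.4%. Small changes below are therefore read relative to the deposited scale. Without the library labelled p110g-/- IFNg/LPS number 1, 10888 genes passed, 5424 higher and 5464 lower, and 10607 of them were the same genes in the same direction. Among the genes named below that passed, Lcn2, Pecam1 and Psap no longer did.

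Large changes were common in both directions. A change of at least 4-fold past the same threshold was seen upward for 1357 genes (8.68%) and downward for 1219 genes (7.80%). The upper tail was longer: 104 genes rose by 7 or more on the log2 scale and 10 fell by as much. Signal moved toward the rising genes, since the 1357 genes held 2.71 to 3.15% of the summed signal in the M-CSF libraries and 27.4 to 32.4% in the IFNg/LPS libraries. The 1219 falling genes went from 10.5 to 11.8% down to 0.977 to 1.45%. The 104 genes at the top held 0.0192 to 0.0411% in M-CSF and 8.78 to 11.1% in IFNg/LPS. Counts of strongly changed genes without library number 1 were 1290 higher and 1126 lower.

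**Figure D1:**
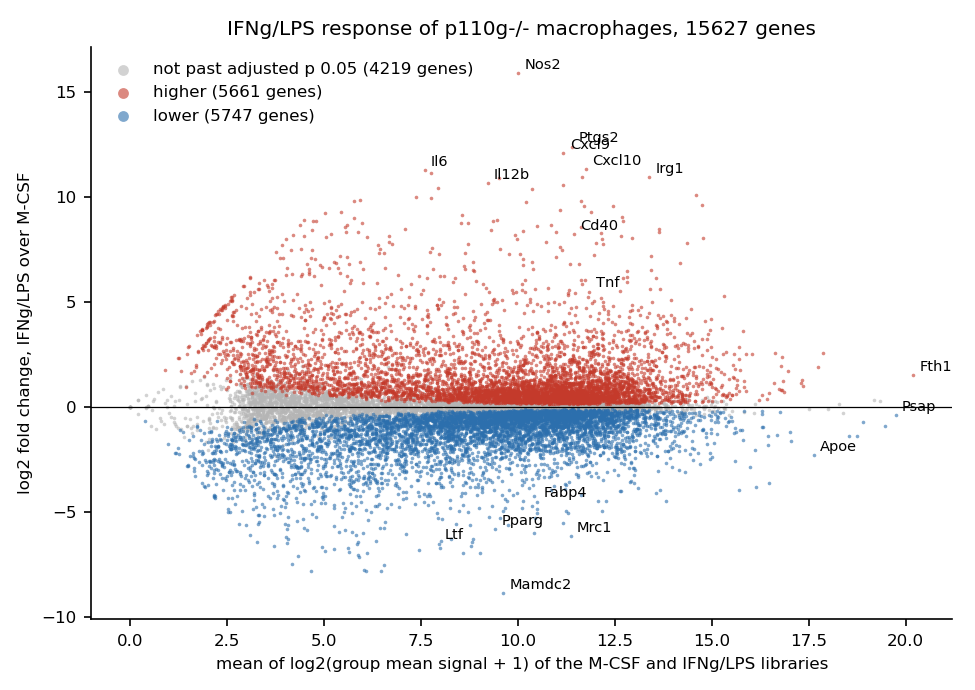
Each point is 1 of 15627 tested genes, with the average of the log2 levels in M-CSF and IFNg/LPS libraries on the horizontal axis and the log2 fold change on the vertical axis. Genes past an adjusted p of 0.05 are red where higher (5661) and blue where lower (5747), and the upper arm reaches 15.89 at Nos2 while the lower arm ends at -8.88 at Mamdc2.

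The gene with the largest change was Nos2, the inducible nitric oxide synthase. Its signal was 1.1, 3.3 and 5.7 in the M-CSF libraries and 303567, 206623 and 218172 in the IFNg/LPS libraries. The log2 fold change was 15.89 ± 0.54 (SE, adjusted p = 1.2e-12). Its M-CSF values lie near the 3-read level, so the size is uncertain, and it ran from 14.14 to 16.28 over the alternative fits. Ptgs2, the inducible cyclooxygenase COX-2, went from 36.8, 17.5 and 56.1 to 291050.5, 145044 and 145149.8, a log2 change of 12.39 ± 0.51. Cxcl9, a chemokine for T cells that carry CXCR3, went from 16.1, 63.4 and 29.5 to 105746, 164211 and 157887, a log2 change of 12.08 ± 0.36. Cxcl10, a second ligand of that receptor, went from 166, 41.5 and 27.6 to 183792, 127706 and 143978. Irg1, also named Acod1, makes itaconate from a citric acid cycle intermediate, and its signal rose from 246, 173 and 306 to 466694, 474621 and 462707. For these 5 genes the groups lay far apart, and the spread between IFNg/LPS libraries was widest for Ptgs2.

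Below them, ordered by fold change among genes with a mean signal of at least 200 and at least 10 in M-CSF, came the guanylate-binding protein Gbp4, the serine protease inhibitor Serpina3g, the IL-12 subunit Il12b, the immunity-related GTPase Iigp1, the chloride channel family gene Clic5, the antiviral genes Rsad2 and Oasl1, AA467197, the chemokine Ccl5, the GTPase Tgtp1 and the cytokine Il1b. Their log2 changes ran from 10.92 at Gbp4 to 9.54 at Il1b. Serpina3g had 17.2, 13.1 and 17.1 in M-CSF and 32697, 29273 and 34509 in IFNg/LPS. Gbp4 had 86.2, 56.8 and 72.2 and 177791, 122657 and 124271. No M-CSF library approached an IFNg/LPS library at either gene.

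The promoters of 4 of these genes are shown because they lead the upper end of the response and hold a match to an element that the activated factors are known to bind. The sequences are RefSeq windows of the mouse build GRCm38.p6, from 250 bases before to 50 bases after a gene start, printed 5′ to 3′ on the strand of the gene, and the deposited values were made on the older build mm9. Capitals mark matches on either strand to TTCNNNGAA for GAS, GAAANNGAA for the interferon-stimulated response element (ISRE) and GGANTTTCC for NF-kB. Cxcl9 (chr5:92328030-92328329, minus strand) holds an ISRE match that begins 175 bases before the start. Cxcl10 (chr5:92348840-92349139, minus strand) holds an ISRE match at 213 and an NF-kB match at 158 bases before the start. Irg1 (chr14:103046762-103047061, plus strand) holds an NF-kB match at 85 bases, and Serpina3g (chr12:104235897-104236196, plus strand) a GAS match at 33 bases.
Cxcl9: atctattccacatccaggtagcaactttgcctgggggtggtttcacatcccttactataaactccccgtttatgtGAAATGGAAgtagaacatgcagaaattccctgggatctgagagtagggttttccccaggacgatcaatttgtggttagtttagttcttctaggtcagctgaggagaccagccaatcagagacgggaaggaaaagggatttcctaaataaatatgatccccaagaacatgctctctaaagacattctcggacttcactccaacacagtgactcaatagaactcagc
Cxcl10: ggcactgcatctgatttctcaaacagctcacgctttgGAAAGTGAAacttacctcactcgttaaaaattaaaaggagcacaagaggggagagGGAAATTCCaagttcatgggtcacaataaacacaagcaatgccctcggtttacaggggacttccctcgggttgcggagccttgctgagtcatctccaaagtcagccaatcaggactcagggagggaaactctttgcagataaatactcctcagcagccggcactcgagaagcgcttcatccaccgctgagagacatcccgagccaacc
Irg1: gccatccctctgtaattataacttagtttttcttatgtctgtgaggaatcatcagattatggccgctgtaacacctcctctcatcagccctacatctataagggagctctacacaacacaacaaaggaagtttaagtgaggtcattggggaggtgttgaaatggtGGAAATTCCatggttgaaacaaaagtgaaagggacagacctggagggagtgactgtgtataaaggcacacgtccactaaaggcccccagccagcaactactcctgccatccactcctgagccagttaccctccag
Serpina3g: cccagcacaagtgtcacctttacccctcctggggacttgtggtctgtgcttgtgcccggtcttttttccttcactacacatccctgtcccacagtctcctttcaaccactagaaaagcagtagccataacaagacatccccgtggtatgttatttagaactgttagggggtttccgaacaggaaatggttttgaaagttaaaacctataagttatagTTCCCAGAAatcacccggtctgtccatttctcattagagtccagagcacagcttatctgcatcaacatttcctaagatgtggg

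Over all genes, such matches were more frequent in promoters of strongly rising genes, given here as a description without a test. A window was found by gene identifier for 967 of the 1357 genes higher by at least 4-fold. Of these, 14.3% held an ISRE match, 9.62% a GAS match and 2.79% an NF-kB match. Among the 11494 matched of all tested genes the shares were 7.53%, 7.09% and 1.36%. The 880 matched genes lower by at least 4-fold had 7.61%, 6.02% and 0.909%, and over all 27025 promoters of the table the shares were 8.57%, 8.47% and 1.23%. Any of the 3 elements occurred in 23.7% of the strongly higher and 13.5% of the strongly lower genes. Of the 15 genes at the top, 12 had a window and 6 of these held a match, and Ptgs2, Il12b, Clic5, Oasl1, AA467197 and Il1b held none.

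At the level of receptors and signal transducers, genes of the LPS pathway changed unequally. Of 16 tested members of the LPS receptor complex and its adaptors, 11 rose and 5 fell, 68.75% and 31.25%. The median log2 change was 1.04. Over all tested genes 36.2% rose and 36.8% fell, and the counts of each list below are read beside these shares. The share of the LPS list that fell lies near that of all tested genes. Cd14, the co-receptor that hands LPS to TLR4, went from 10916, 10263 and 15304 in M-CSF to 101670.1, 82307 and 77124 in IFNg/LPS, a log2 change of 2.85 ± 0.26. Tlr4 itself fell, from 4870.4, 5877 and 5878 to 3178, 2755 and 3934, a log2 change of -0.76 ± 0.13 (adjusted p = 5.1e-05), with the 3 libraries of each treatment not overlapping. The adaptor Myd88 rose by 1.34, Ticam1 by 1.39 and the kinase Tbk1, which phosphorylates IRF3, by 1.56 on the log2 scale. The kinase Irak1 fell (-0.96), whereas Irak3, an inhibitor of the pathway also called IRAK-M, rose by 1.89.

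The interferon side showed a lower ligand-binding receptor and higher kinases and STATs. Of 14 interferon receptor, JAK and STAT genes, 11 rose and 2 fell, 78.6% and 14.3%, against 36.2% and 36.8% of all tested genes. Ifngr1, the ligand-binding chain of the IFNg receptor, fell from 7800.5, 9074 and 8602 to 1841, 1859 and 1852, a log2 change of -2.19 ± 0.14. Stat2, a transducer of type I interferon signalling, rose by 3.88, the kinase Jak2 by 3.01, Stat3 by 2.32 and Stat4 by 2.93. Of 8 interferon regulatory factors, 6 rose and 2 fell, 75.0% and 25.0%. Irf7, which amplifies type I interferon, went from 1898, 564 and 3368 to 178403, 171068 and 178242, and Irf1, an early IFNg target, from 3583, 4089 and 3877 to 74711, 73354 and 68013. Irf4, a factor of IL-4 responses, fell by 1.64 and Irf3 by 0.30 on the log2 scale.

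NF-kB genes and feedback inhibitors rose together. All 10 tested NF-kB subunits and inhibitors were higher, with a median log2 change of 2.14, against 36.2% of all tested genes called higher. The inhibitor Nfkbia, which encodes IkB alpha, rose by 4.34 ± 0.27 and Nfkbie by 3.61 ± 0.18, while the subunits Rela, Relb, Rel and Nfkb1 rose by 1.11, 1.13, 1.19 and 1.15. Of 18 feedback inhibitors, 16 rose and 2 fell. Socs1, an inhibitor of JAK kinases, went from 49.4, 19.7 and 34.2 to 11844, 11939 and 9874. Socs3 went from 69, 116 and 375 to 31304, 17336 and 16141, and Usp18, which restrains the type I interferon receptor, rose by 7.22 on the log2 scale. The exceptions were Socs5 (-1.40) and Socs6 (-1.74), which fell. Tnfaip3, which encodes the ubiquitin editor A20, rose by 2.76, and Dusp1, a phosphatase of MAP kinases, by 2.78.

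Early response factors did not move as a group. Of 14 AP-1, EGR and early response genes, 4 rose and 3 fell, or 4 and 6 after scaling to totals. Over all tested genes 36.2% rose and 36.8% fell, against 28.6% and 21.4% of this list. Junb rose by 1.86, Fosl1 by 4.26, Ier3 by 3.78 and Atf3 by 1.25 on the log2 scale. Myc, a driver of growth and division, fell from 528, 565 and 490.3 to 24.4, 41.8 and 27.3, and Egr2, a factor of alternative activation, from 5196, 4912 and 4860 to 52.3, 412 and 257. In both cases the M-CSF libraries agreed closely and every IFNg/LPS library lay far below them. Egr2 differed severalfold among the IFNg/LPS libraries, with number 1 lowest.

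All 19 tested inflammatory cytokine genes were higher in IFNg/LPS, with a median log2 change of 5.45. That median falls on Ifnb1, which was under the 3-read level in M-CSF. On log2(value + 10) the list median was 3.60, so its size depends on the added constant. Tnf, the central early cytokine, went from 704, 408 and 551 to 21914, 27173 and 24018, a log2 change of 5.49 ± 0.18 (adjusted p = 7.9e-13). Il1b went from 118, 105 and 419 to 260392, 85032 and 98981, and Il12b, the shared p40 chain of IL-12 and IL-23, from 29.9, 7.6 and 7.6 to 30984, 20297 and 14779. Number 1 was the highest of the IFNg/LPS libraries for both. Il6 had 2.3, 2.2 and 2.9 in M-CSF, at or under the 3-read level, and 21116, 4528 and 6750.2 in IFNg/LPS. Il12a, the p35 chain particular to IL-12 and IL-35, had 1.1, 0 and 1.9 and 583, 99.7 and 134, again with number 1 highest. Ifnb1, which encodes interferon beta, had 1.1, 0 and 0 and 88.4, 34.2 and 54.6, and Csf3, which encodes G-CSF, 0, 0 and 1.9 and 183, 28.5 and 50.7. Il27 rose by 6.54, Il15 by 3.97, Il18 by 1.32 and Tnfsf10, which encodes TRAIL, by 5.48 on the log2 scale.

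Inhibitory cytokines and decoys were raised in part. Of 8 tested members 4 rose and 1 fell, 50.0% and 12.5%, against 36.2% and 36.8% of all tested genes. Il1rn, the IL-1 receptor antagonist, went from 1089.7, 689.6 and 980.5 to 125900.4, 114872 and 161649, and Il18bp, a decoy for IL-18, rose by 4.66. Il10 went from 21.8, 9.8 and 36.1 to 1557, 200.3 and 518, a log2 change of 4.71 ± 0.66, with more than the usual spread among the IFNg/LPS libraries. Tgfb1 fell by 1.26 on the log2 scale.

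Most chemokine genes rose. Of 12 CXC chemokines 8 rose and 2 fell, 66.7% and 16.7%, against 36.2% and 36.8% of all tested genes. Of 13 CC chemokines 10 rose and 2 fell, 76.9% and 15.4%. Among ligands of CXCR3, Cxcl11 went from 3.4, 10.9 and 3.8 to 9125, 7293 and 9673, alongside Cxcl9 and Cxcl10. The neutrophil attractants Cxcl1, Cxcl2 and Cxcl3 rose by 2.92, 5.05 and 6.24 on the log2 scale. Ccl5 went from 533, 343 and 2737 to 743564, 554883 and 575985, and the monocyte attractants Ccl2 and Ccl7 rose by 8.17 and 6.15. Ccl8 and Ccl12, of the same family, had 0 to 3.8 and 0 to 1.9 in M-CSF, and 271, 316 and 292 and 402, 176 and 248 in IFNg/LPS. The homeostatic chemokine Cxcl12 fell from 129.9, 114 and 117 to 14, 1.9 and 17.5, Ccl6 fell by 3.54 and Pf4 by 1.76. Of 20 chemotactic receptors 7 rose and 7 fell, 35.0% each. Over all tested genes the shares were 36.2% and 36.8%, so this is no result about the list as a whole. Ccr7, which guides cells to lymph nodes, rose by 6.58 and the formyl peptide receptors Fpr1 and Fpr2 by 7.25 and 6.88. Cxcr4, the receptor of CXCL12, fell from 10695, 8993 and 8870.5 to 1376, 758 and 732, Ccr2 fell by 1.79 and the complement receptor C5ar1 by 2.67.

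**Figure D2:**
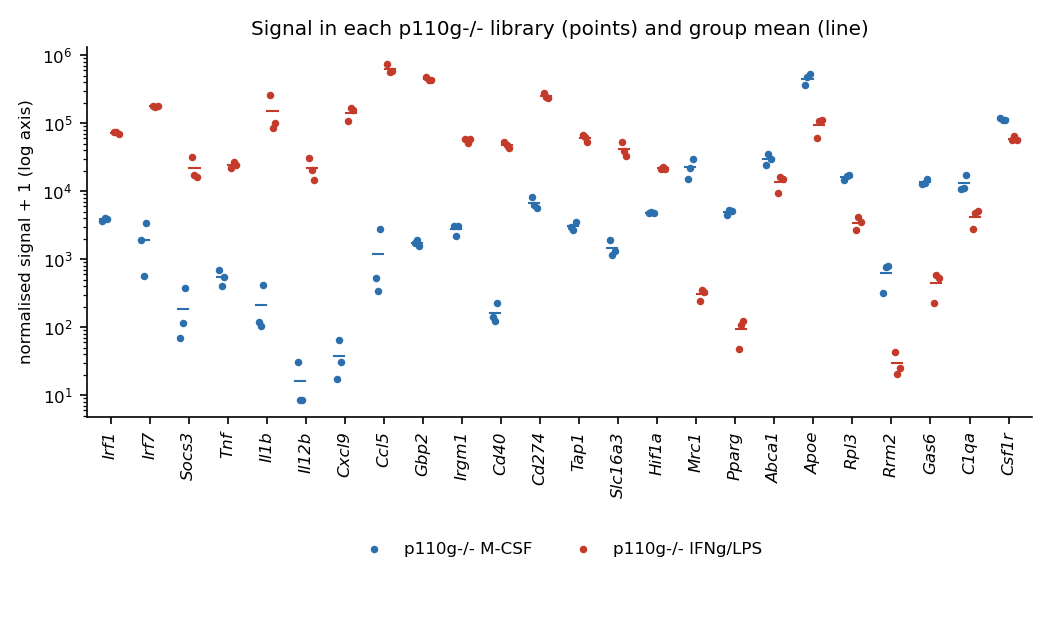
Normalised signal plus 1, on a log axis, of 24 genes in the 3 p110g-/- M-CSF libraries (blue points) and the 3 p110g-/- IFNg/LPS libraries (red points), with a line at each group mean. Cxcl9 rises from 16.1 to 63.4 up to 105746 to 164211, Mrc1 falls from 15279 to 30035 down to 238 to 350, and the groups do not overlap at any of the plotted genes.

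Both tested families of interferon-inducible GTPases rose in full. All 11 guanylate-binding proteins, large GTPases that act on vacuoles holding microbes, were higher, with a median log2 change of 8.55. Gbp2 went from 1712, 1931 and 1547 to 481607, 432436 and 428965 and Gbp5 from 284, 343 and 317 to 161297, 133469 and 138484. All 9 immunity-related GTPases were higher, with a median of 5.94, from Gm5431 at 2.42 to Iigp1 at 10.58. Irgm1, a regulator of that family, went from 3113, 2218 and 3054 to 57695, 51848 and 59062. The Gbp and Tgtp genes have near-identical copies, and how reads shared between copies were counted is not given in the sources used here, so the division of signal among them is uncertain.

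Genes of the type I interferon program rose without exception in the list examined. All 30 were higher, with a median log2 change of 4.50. Rsad2, which encodes viperin and blocks viral replication by making a chain-terminating nucleotide, went from 1114, 413 and 781 to 797781, 691176 and 867246. Isg15, a ubiquitin-like modifier, went from 392, 187 and 399 to 77211, 60250.3 and 64841, and Cmpk2, the neighbour of Rsad2 in the genome, rose by 8.45 on the log2 scale. Trim25, a ubiquitin ligase of RNA sensing, rose by 1.88. The IFNg/LPS libraries lay far above the M-CSF libraries at both Rsad2 and Isg15.

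Most enzymes of arginine and tryptophan use rose. Of 15 such genes 11 rose and 3 fell. Slc7a2, an arginine transporter, went from 259.8, 528 and 378 to 122217, 93972 and 101809.8, and Ass1, which regenerates arginine from citrulline, from 1013, 161 and 276 to 8070.2, 12874 and 13375. Gch1, which makes the cofactor of nitric oxide synthase, rose by 2.27 ± 0.10. Arg1, the arginase that competes for the same substrate, was at 0, 1.1 and 0 in M-CSF and 104, 74 and 77 in IFNg/LPS. Ido1, which breaks down tryptophan, had 2.3, 1.1 and 2.9 and 699, 51.3 and 119.9. Srm, an enzyme of polyamine synthesis, fell by 1.87 on the log2 scale.

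Most oxidant defence and inflammasome genes rose, with exceptions in each list. Of 9 oxidase and superoxide dismutase genes 6 rose and 2 fell, 66.7% and 22.2%, against 36.2% and 36.8% of all tested genes. Sod2, the mitochondrial superoxide dismutase, went from 2463, 2068 and 2511 to 55098, 37372 and 44694, and Sod1 fell by 0.97 on the log2 scale. Of 12 inflammasome genes 8 rose and 2 fell, 66.7% and 16.7%. Casp4, also called caspase-11 in the mouse, rose by 3.50, Casp1 by 2.39, Nlrp3 by 2.42 and the pore-forming Gsdmd by 1.60. Pycard, which encodes the adaptor ASC, fell from 2189, 2622 and 3166 to 602, 864 and 874. The Naip genes are near-identical copies and their values are uncertain in that respect.

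Most antigen presentation genes rose, with the larger median among class I genes. Of 17 MHC class I and peptide loading genes, 16 rose and none fell at the threshold, with a median log2 change of 2.60, and Calr had 0.20 with an adjusted p of 0.086. Tap1, a subunit of the peptide transporter, went from 2951, 2728 and 3508 to 65939.8, 61854 and 53321, Nlrc5, the regulator of class I genes, rose by 4.33 and B2m by 1.87. All 10 tested immunoproteasome and activator subunits were higher, with a median of 1.77. Psmb9, an inducible catalytic subunit, rose by 2.91 and Psmb8 by 2.23. Class II genes had a median of 0.65, and 8 of 12 rose. H2-Ab1 went from 26622, 15561 and 11976 to 46648, 50721 and 32712, a log2 change of 1.32 ± 0.29. Ciita, the master regulator of class II, had 1867, 1455 and 975 and 1533, 3008 and 1826, groups that overlap, with an adjusted p of 0.043 that was lost in 7 alternative fits. It was 0.26 without IFNg/LPS number 2 and reached 0.57, and the call was also lost without M-CSF number 2 or 3 and in the fit of these 6 libraries alone. Scaled to library totals, 3 of the 12 class II genes were higher and 1 lower, so this small rise depends on the scale. H2-Q genes are near-identical copies whose values are uncertain.

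Co-stimulatory and checkpoint ligands rose in 14 of 15 cases. Cd40, which receives signals from T cells, went from 141, 124 and 223 to 52123, 48069.6 and 43655, a log2 change of 8.24 ± 0.23. Cd274, which encodes the checkpoint ligand PD-L1, went from 8153, 6238 and 5607 to 281271, 238409 and 235342, a log2 change of 5.25 ± 0.28. Cd86 rose by 4.92, Cd80 by 2.71, Slamf1 by 7.87 and the adhesion ligand Icam1 by 3.83. The exception was Cd276, which fell by 0.68 on the log2 scale.

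Metabolic genes changed differently by pathway. Of 25 glycolysis and lactate genes 18 rose and 5 fell, 72.0% and 20.0%, against 36.2% and 36.8% of all tested genes. The median log2 change was 2.30. Slc16a3, the lactate exporter MCT4, went from 1936, 1144 and 1336 to 53385, 38549.5 and 33283. Pgk1 rose by 3.74 and Gapdh by 2.95, while Ldhb, the lactate dehydrogenase subunit that favours pyruvate, fell from 1400.1, 1484 and 1272 to 100, 104 and 110.1. The other genes that fell were Pfkm (-0.45), Pfkfb2 (-0.94), Pfkfb4 (-1.31) and Eno2 (-1.30). Of 15 HIF regulators and targets 11 rose and 1 fell, 73.3% and 6.67%. Hif1a went from 4726, 4929.8 and 4752 to 21412, 22612 and 20998 and its hydroxylase Egln3 rose by 5.95, while Epas1, which encodes HIF-2 alpha, fell by 3.39 on the log2 scale.

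Citric acid cycle and respiratory genes did not rise as a group. Of 21 citric acid cycle genes 8 rose and 11 fell, 38.1% and 52.4%, against 36.2% and 36.8% of all tested genes. The share that rose lies near that of all tested genes. Irg1 stood at the top of the list. After scaling to totals 2 rose and 14 fell, so the counts depend on the scale. Idh1, the cytosolic isocitrate dehydrogenase, fell from 17095, 21167 and 18281 to 1698, 1986 and 2263, and Idh3g, a subunit of the mitochondrial enzyme, fell by 1.34, whereas Sdhd rose by 0.82. Of 33 respiratory chain and ATP synthase genes 10 rose and 13 fell, with a median of -0.12. These are 30.3% and 39.4%, near the 36.2% and 36.8% of all tested genes. This balance depends on the scale, with 15 higher and 11 lower after centring libraries on their medians and 3 higher and 25 lower after scaling to totals. Within it, Cox4i1 fell by 1.19 and Cox5a rose by 0.85.

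More lipid genes fell than rose in each list below. Pparg, a nuclear receptor that controls lipid uptake and storage, went from 4496, 5217 and 5038 to 47.7, 107 and 124, a log2 change of -5.82 ± 0.31 (adjusted p = 1.4e-10). Of 16 genes of its list 10 fell and 5 rose. The fatty acid-binding protein Fabp4 went from 5167, 7798 and 7334 to 169, 399 and 359, lipoprotein lipase Lpl fell by 3.83 and Angptl4, which inhibits that lipase, by 6.02. In the other direction the acyl-CoA synthetase Acsl1 rose by 5.06 and the lipid droplet gene Hilpda by 4.57. Of 15 LXR and cholesterol efflux genes 9 fell and 3 rose. Apoe, which carries cholesterol out of macrophages, went from 362905, 469857 and 518027 to 60681, 106067 and 111626, and the exporter Abca1 from 24164, 35254 and 30015 to 9238, 15986 and 15177. Of 25 sterol synthesis and uptake genes 15 fell, including Fdft1 (-2.35) and Dhcr7 (-2.48).

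Genes of prostanoid and leukotriene synthesis changed in both directions. Of 14 genes 9 fell and 5 rose, 64.3% and 35.7%, against 36.8% and 36.2% of all tested genes. The share that rose lies near that of all tested genes. Beside Ptgs2, Ptges, which makes prostaglandin E2, went from 192, 170.5 and 199.5 to 17158, 6717 and 6641, and the phospholipase Pla2g4a, which releases arachidonic acid, rose by 3.84 on the log2 scale. The constitutive enzyme Ptgs1 fell from 364, 408 and 444 to 17.4, 9.5 and 16.6. Alox5, which starts leukotriene synthesis, fell by 2.18 and Hpgds, which makes prostaglandin D2, by 2.27. The groups did not overlap at Ptges or Ptgs1.

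Genes of the NRF2 antioxidant program rose in 12 of 15 cases and fell in 2. These are 80.0% and 13.3%, against 36.2% and 36.8% of all tested genes. Hmox1, heme oxygenase, went from 16762, 15412 and 16897 to 226862, 175069 and 196792, and the cystine transporter Slc7a11 rose by 3.62 on the log2 scale. Nfe2l2, which encodes NRF2, fell by 0.88. Of 15 iron and metal genes 9 rose and 3 fell. The exporter ferroportin, Slc40a1, fell from 16764, 18647 and 12383 to 1597, 1227 and 1379.9, and the haptoglobin receptor Cd163 by 3.32, while the storage subunit Fth1 rose by 1.51 and metallothionein Mt2 by 5.44.

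Most lysosomal and ribosomal protein genes fell. Of 30 lysosomal genes 19 fell and 8 rose, with a median log2 change of -0.52. Man2b1 fell by 2.51 and Gusb by 1.96, while Ctsc, which activates granule proteases, rose from 6767, 8155 and 12079 to 120045, 105661 and 108196. Of 40 cytosolic ribosomal protein genes 39 fell and none rose, with a median of -1.90. Rpl3 went from 14556, 16446 and 17149 to 2677, 4184 and 3492 and Rpl10a from 12133, 14045 and 14246 to 539.6, 824 and 832. Together these 40 genes held 1.18 to 1.27% of the summed signal in M-CSF and 0.244 to 0.344% in IFNg/LPS. Ribosomal protein genes have many processed pseudogenes and their counts are uncertain in that respect. Of 20 endoplasmic reticulum genes 9 rose and 6 fell, 45.0% and 30.0%, against 36.2% and 36.8% of all tested genes. The counts turned to 6 and 9 after scaling to totals, so they are no result about the list as a whole. Ero1l rose by 3.58, Trib3 by 2.85 and Atf4 by 2.11, and Herpud1, a gene of protein disposal, fell by 2.33 on the log2 scale.

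Genes of DNA replication and mitosis fell in 28 of 30 cases, with a median log2 change of -2.12. Rrm2, which makes deoxynucleotides, went from 319.6, 768 and 792 to 43, 19.9 and 24.4, and the mitotic cyclin Ccnb2 from 226, 412 and 400 to 20.9, 19 and 19.5. The exceptions were Tyms, thymidylate synthase, which rose by 1.39, and the spindle factor Tpx2, which rose by 2.34. Of 20 G1 regulators 10 rose and 5 fell, 50.0% and 25.0%, or 9 and 7 after scaling to totals. Over all tested genes 36.2% rose and 36.8% fell, and the G1 counts are not read as a result about the list. Ccnd2, a G1 cyclin, went from 153, 69.9 and 68.4 to 19458, 8880.4 and 9914, Ccne1 rose by 4.12 and Cdkn1a, the inhibitor p21, by 3.34, while Cdkn2c fell by 3.04 and E2f2 by 2.71. Of 22 survival and death genes 18 rose and 4 fell. Cflar, an inhibitor of caspase-8, rose by 3.46 and Bak1, a pore former, by 2.21, while Bcl2 fell by 0.96 and Bcl2l11, which encodes BIM, by 1.19.

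In the pathway of the deleted kinase, 4 of 15 class I PI3K subunit and phosphatase genes rose and 5 fell, which became 3 and 7 after scaling to totals and 6 and 3 after centring libraries on their medians. Pik3ca, Pik3cb and Pik3cd, the other catalytic subunits, had log2 changes of -0.05, 0.15 and -0.04, none past the threshold. Pik3r2, a regulatory subunit, fell from 1768, 1711 and 1856 to 765, 907 and 812, and Pik3r5, a partner of p110gamma, fell by 0.52. Pik3ap1, an adaptor for PI3K, rose by 1.17. Inpp4b, a phosphatase of PI3K lipid products, rose from 37.9, 17.5 and 31.4 to 227, 196 and 209.5. Of 20 Akt, mTOR and stress inhibitor genes 9 rose and 10 fell, or 5 and 12 after scaling to totals. Over all tested genes 36.2% rose and 36.8% fell, and neither the PI3K nor the Akt counts are read as a result about their list. The mTOR inhibitor Deptor went from 399, 568 and 446 to 5.8, 5.7 and 5.8 and Sesn1, a stress inhibitor of mTOR, from 11081, 15092 and 14346 to 461, 403 and 414, and the groups lay far apart at both. Ddit4, a further inhibitor of mTOR, rose by 3.02 and Sesn3 by 2.76. Akt1 fell by 0.89 and Akt2 by 0.70 on the log2 scale.

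Of 20 macrophage identity and lineage genes 10 fell and 6 rose, against 36.8% and 36.2% of all tested genes, which is no result about the list as a whole. Csf1r fell by 0.96 ± 0.08 and the lysosomal marker Cd68 by 1.75 ± 0.19, while Emr1 rose by 0.83 ± 0.13. The lineage factor Cebpa fell by 2.32, and Cebpb, a factor of inflammatory genes, rose by 2.82. Klf4 rose by 5.01 on the log2 scale. Sfpi1, which encodes PU.1, rose by 0.46, a call lost after scaling to totals.

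Receptors for lectin ligands, dying cells and lipoproteins were mostly lower. Of 22 such genes 12 fell and 6 rose. Mrc1, the mannose receptor, went from 15279, 22238 and 30035 to 238, 350.2 and 333, a log2 change of -6.16 ± 0.21. Clec10a, a galactose lectin, went from 269, 707 and 625 to 20.9, 9.5 and 21.4, and Cd209a from 109, 114 and 54.2 to 0 in each IFNg/LPS library, which is at least 29.9-fold lower against 3 reads per library. Gas6, a bridge to dying cells, went from 12868, 13311 and 15079.7 to 228, 585 and 533, and the related Pros1 fell by 3.88. Against this trend Marco, a scavenger receptor for bacteria, went from 524, 90.7 and 245 to 65183, 13752 and 18415, Clec4e, which encodes Mincle, rose by 6.51 and the oxidised LDL receptor Olr1 by 4.23. Of 19 genes used as markers of IL-4 treatment 7 rose and 8 fell, 36.8% and 42.1%. Over all tested genes the shares were 36.2% and 36.8%, so this is no result about the list as a whole. Chi3l3 fell by 3.11, whereas Ccl22 rose by 4.01 and Tgm2, a transglutaminase, by 4.63 on the log2 scale.

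Complement genes moved both ways. Of 18 members 8 rose and 9 fell, 44.4% and 50.0%. Over all tested genes 36.2% rose and 36.8% fell. The complement, Fc receptor, integrin and matrix counts given here lie at or somewhat above those shares, which is no result about these lists as a whole. The factor Cfb of the alternative pathway went from 100, 141 and 688 to 69199.7, 61148 and 70334, C3 rose by 5.62 and the serine protease C1s by 4.39. C1qa, a subunit of the first component of the classical pathway, fell from 10885, 11150.3 and 17398 to 2746, 4725 and 5144. Of 8 Fc receptor genes 3 rose and 3 fell. Fcgr1 and Fcgr4, which activate phagocytosis, rose by 2.26 and 2.14, while Fcrls fell by 5.31 and Fcgrt by 3.09. Of 19 integrin and adhesion genes 7 rose and 7 fell, or 4 and 9 after scaling to totals. Itgal rose by 3.28 and Itga5 by 3.52, while Itgb5 fell by 4.03 and Itga6 by 3.60. Of 26 matrix protease and repair genes 10 rose and 10 fell. Thbs1 rose by 4.07 and Mmp25 by 4.85, and Fn1, fibronectin, fell by 3.57, Timp2 by 3.88 and Igf1 by 3.09.

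Among the 15 genes with the largest falls, by the same level filter as the risers, were Mamdc2, Abca9, Slc9a9, Zfyve28, Ngp, Ltf, Matk, Gprc5c, Kctd12b, Pcp4l1, Mrc1, Fat3, Rab3il1 and Pparg. Mamdc2 went from 10289, 19955 and 19411 to 16.3, 50.3 and 41.9, a log2 change of -8.88 ± 0.50 (adjusted p = 2.8e-10). Abca9, a lipid transporter family gene, went from 3183, 4898 and 4343 to 57, 19 and 27.3, and Slc9a9, a sodium-proton exchanger of endosomes, from 4397, 6306 and 6195 to 24.4, 70.2 and 46.8. Number 1 was the lowest IFNg/LPS library at Mamdc2. Ngp and Ltf are neutrophil granule genes, and the neutrophil markers are described below. Of the 11 of these 15 genes with a promoter window, 1 held a match to any of the 3 elements.

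**Figure D3:**
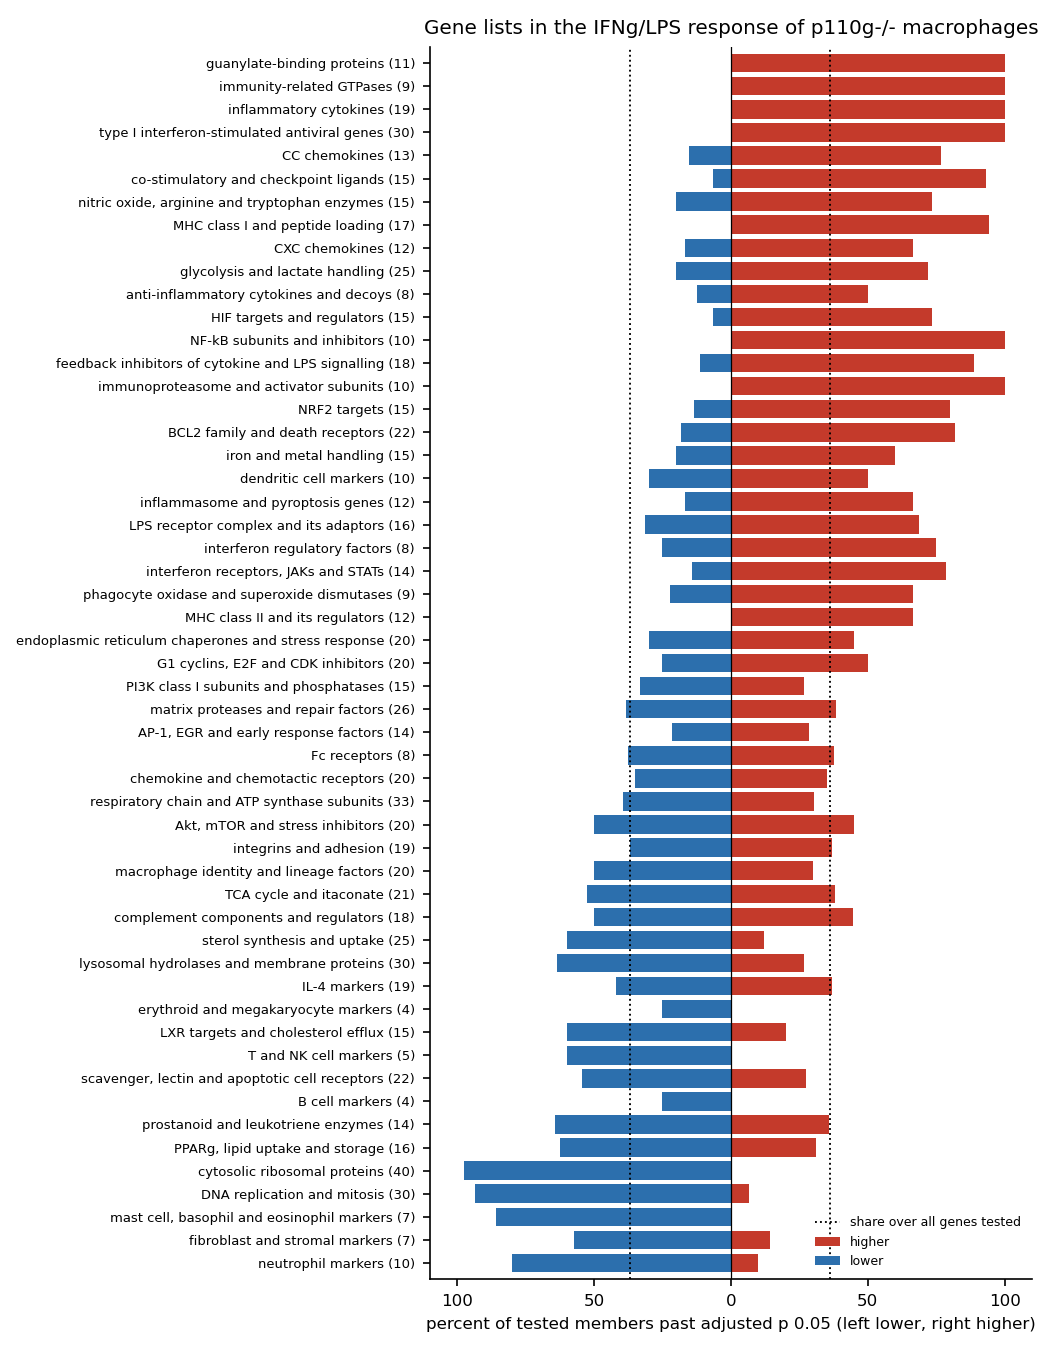
For each list, the percent of tested members (number in brackets) past an adjusted p of 0.05 that were higher (red, right) or lower (blue, left) in p110g-/- IFNg/LPS than in p110g-/- M-CSF, ordered by median log2 fold change. Dotted lines mark the shares over all tested genes, 36.2% higher and 36.8% lower, and the guanylate-binding protein list stands at 11 of 11 higher while the ribosomal protein list stands at 39 of 40 lower.

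Markers of other cell types were checked in the same libraries. The summed signal of 10 neutrophil markers was 10573 to 27820 in M-CSF and 1283 to 2197 in IFNg/LPS, and 8 of the 10 fell and 1 rose. Ltf, lactoferrin of neutrophil granules, went from 3285, 1475 and 1859 to 7, 34.2 and 40. Ngp went from 6794, 2414 and 2849.5 to 9.3, 54.1 and 81.9, and M-CSF number 1 was highest for both. Elane, a further member of the list, was at 0 in every IFNg/LPS library. Fibroblast markers summed to 1612 to 3636 in M-CSF and 344 to 585 in IFNg/LPS, with Col1a1 falling from 1522, 494 and 644 to 62.8, 52.2 and 72.1. B cell markers summed to 152 to 628 and 46.4 to 131, T and NK cell markers to 1515 to 1885 and 262 to 310, and mast cell, basophil and eosinophil markers to 666.5 to 865.5 and 144 to 293. Dendritic cell markers summed to 692 to 1258 in M-CSF and 8691 to 23548 in IFNg/LPS, and 5 of the 10 rose, Ccr7 and Fscn1 among them, while 3 fell, with Cd209a at 0 in every IFNg/LPS library. At the threshold, 4 of 7 fibroblast markers fell and 1 rose, 1 of 4 B cell, 3 of 5 T and NK cell, 6 of 7 mast cell, basophil and eosinophil and 1 of 4 erythroid and megakaryocyte markers fell, and none of these last 4 lists had a member that rose. The erythroid and megakaryocyte markers summed to 91.8 to 189.6 in M-CSF and 55.6 to 239.6 in IFNg/LPS, ranges that overlap. The part of other cells in the changes above was not tested.

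The IFNg/LPS libraries differed most among themselves at a small set of strongly changed genes. Of the 10 with the widest range, 8 rose, among them the secreted or inducible defence genes Il10, Lcn2, Ido1, Saa1 and Saa3, and Egr2 (-4.80) and Dio2 (-2.51) fell. Saa3, an acute phase protein, had 102, 252 and 2442 in M-CSF and 358982, 53312 and 104889 in IFNg/LPS, a log2 change of 8.30 ± 0.90, with number 1 above both others. Saa1 had 0, 1.1 and 25.7 and 3990.3, 529 and 1154, and Lcn2, lipocalin that binds bacterial iron carriers, 1531, 732 and 966 and 14811, 1798 and 2916. For Lcn2 the adjusted p was 0.014 with all libraries and 0.092 without number 1, and for the adhesion molecule Pecam1 0.027 and 0.17. Gipr and Gm15056 complete the set.

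By share of the library, which depends on transcript length, the 10 genes with the highest mean signal in IFNg/LPS were Fth1, Rsad2, Psap, Rn45s, Rn28s1, Ccl5, Prdx1, Ctsb, Irg1 and Gbp2. Irg1 alone held 0.761% of the summed signal of the average IFNg/LPS library and Rsad2 1.28%. Prdx1, a peroxidase, rose by 2.55 on the log2 scale. Rn45s and Rn28s1, both from ribosomal RNA, together held 2.10 to 2.94% in M-CSF and 1.80 to 2.71% in IFNg/LPS, with ranges that overlap.

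Most genes that passed did so in both genotypes, and the difference between their responses was tested as an interaction in the same fit. In WT, 11538 genes passed (73.8%), 5676 higher (36.3%) and 5862 lower (37.5%), and 10074 genes passed in both genotypes in the same direction. The difference itself passed for 381 genes, 2.44% of those tested, while 2714 genes had an unadjusted p under 0.05. By sign, the log2 change in p110g-/- was more positive than in WT for 159 (1.02%) and more negative for 222 (1.42%). Of the 381, 99 rose in p110g-/- with a more positive change than in WT, and 132 fell with a more negative one. The median standard error of a difference was 0.20 on the log2 scale, so small differences between genotypes were not detectable for most genes. The count moved with the settings, from 211 with the 12 M-CSF and IFNg/LPS libraries alone to 1708 with numbers 2 and 3 only, and was 527 without the library labelled p110g-/- IFNg/LPS number 1. Scaling to totals gave 519 genes with 71.7% more positive, and centring on medians 460 genes with 29.3% more positive, against 41.7% here. The direction of the balance therefore depends on the scale.

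Cd14 was the 1 gene of the LPS receptor list whose response differed between genotypes. In WT its signal was 17509.5, 12837 and 13776 in M-CSF and 29075, 18635 and 21898 in IFNg/LPS, so that its log2 change was 0.65 against 2.85 in p110g-/-, a difference of 2.21 ± 0.36 (adjusted p = 0.0049). All 3 p110g-/- IFNg/LPS libraries lay above all WT libraries. Inpp4b moved in opposite directions: WT went from 119.8, 41.1 and 44.4 to 23.6, 17.7 and 26.8, a log2 change of -1.39, against 2.89 in p110g-/-, a difference of 4.28 ± 0.53 (adjusted p = 0.0007). Itpr2, an intracellular calcium channel, had 1510.3, 1456 and 1524 and 1033, 1029.9 and 1044 in WT and 1717, 1604 and 1555 and 1778, 2196 and 1979 in p110g-/-, a difference of 0.81 ± 0.11; its small p110g-/- rise of 0.28 turned to -0.12 after scaling to totals. Foxp4, a transcription factor, rose by 1.37 in WT and 2.18 in p110g-/-, a difference of 0.81 ± 0.11. Others with a larger change in p110g-/- among the 10 with the smallest adjusted p were Fam32a, Ktn1, Apbb3, Denr, Chd9, Tagap1 and Edil3.

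Differences toward a smaller or more negative change in p110g-/- were led by Rgl1, an exchange factor for Ral GTPases. It rose from 3326, 2661 and 2739.8 to 29006, 26278 and 26895 in WT and from 4111, 4163 and 4261 to 8818, 7919 and 9673 in p110g-/-, a difference of -2.17 ± 0.16 (adjusted p = 3.6e-06). Cysltr2, a receptor for cysteinyl leukotrienes, went from 69.1, 60.3 and 62.8 to 1764, 1048 and 936 in WT and stood at 10.3, 13.1 and 20 and 12.8, 7.6 and 15.6 in p110g-/-, groups that overlap, a difference of -4.46 ± 0.41. Csrp1, a LIM domain protein, rose from 5229.9, 3491 and 3738 to 11464, 13834 and 12666 in WT and fell from 4319, 4136 and 4255 to 1483, 2249 and 2153 in p110g-/-. Its M-CSF libraries overlapped between genotypes and its IFNg/LPS libraries did not. B4galt5, a galactosyltransferase, rose by 0.76 in WT and had -0.09 in p110g-/-, and Rnf149, a ubiquitin ligase, had 0.85 and -0.12. Gm9199, H60a, Mbnl1, Cd300ld and March1 complete the 10. H60a, Cd300ld, Gm9199 and Tagap1 belong to families with similar copies, and their values are uncertain in that respect.

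**Figure D4:**
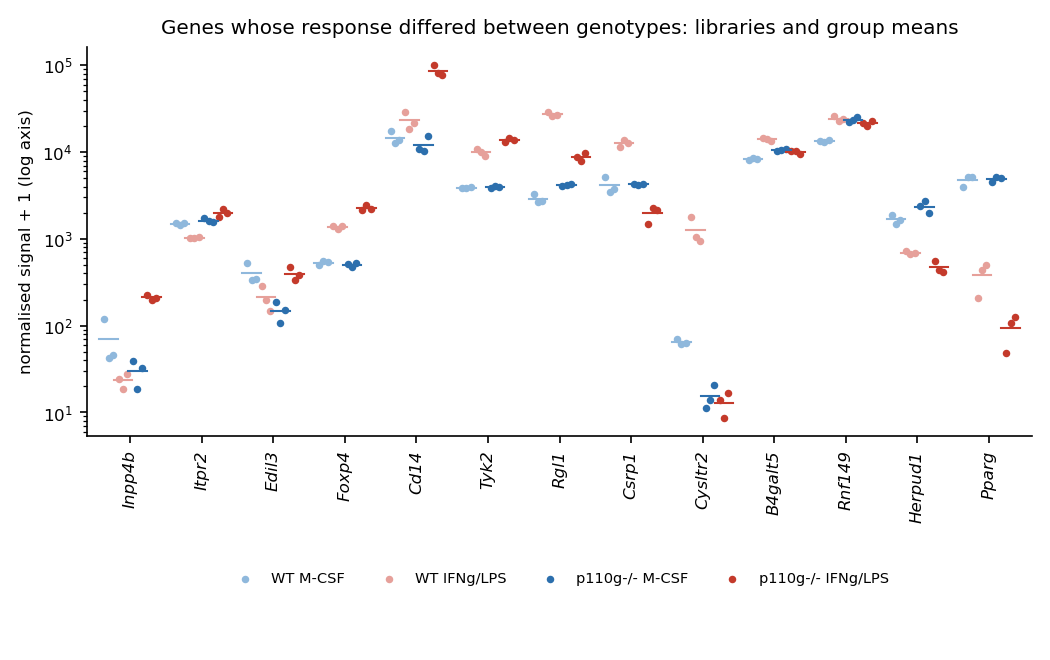
Normalised signal plus 1, on a log axis, of 13 genes whose response differed between genotypes, in the 3 libraries (points) and as the mean (line) of WT M-CSF, WT IFNg/LPS, p110g-/- M-CSF and p110g-/- IFNg/LPS. Inpp4b falls in WT and rises in p110g-/-, and Cysltr2 rises in WT and stays between 7.6 and 20.0 in p110g-/-.

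The lists described above held few of these differences. Among 832 distinct tested list genes, 19 differed, 2.28% against the 2.44% of all tested genes. Of the 15 PI3K list genes, 1 had a more positive change in p110g-/- than in WT, Inpp4b, and 1 a more negative one, Inpp4a. Pparg fell further in p110g-/- than in WT, with log2 changes of -5.82 against -3.71, a difference of -2.11 ± 0.44 (adjusted p = 0.02). That call was lost in 3 alternative fits, with the 12 M-CSF and IFNg/LPS libraries alone, without p110g-/- M-CSF number 2 and without WT IFNg/LPS number 2, where the adjusted p reached 0.081. Herpud1 had log2 changes of -2.33 against -1.27, a difference of -1.06 ± 0.19. Il12b rose by 10.64 against 7.51 in WT, with an adjusted p of 0.048 for the difference that lay above 0.05 in 14 of the alternative fits, among them the one without IFNg/LPS number 1. Tyk2, a kinase of interferon and IL-12 receptors, rose by 1.79 against 1.36, with an adjusted p of 0.022 that lay above 0.05 in 7 alternative fits and reached 0.081. No member of the guanylate-binding protein, immunity-related GTPase, antiviral, NF-kB, MHC class I or MHC class II lists passed the test of the difference. Nos2 had a difference of 0.93 ± 0.77 and Tnf of 0.79 ± 0.25, neither past the threshold, which does not show that the responses were equal.

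**Figure D5:**
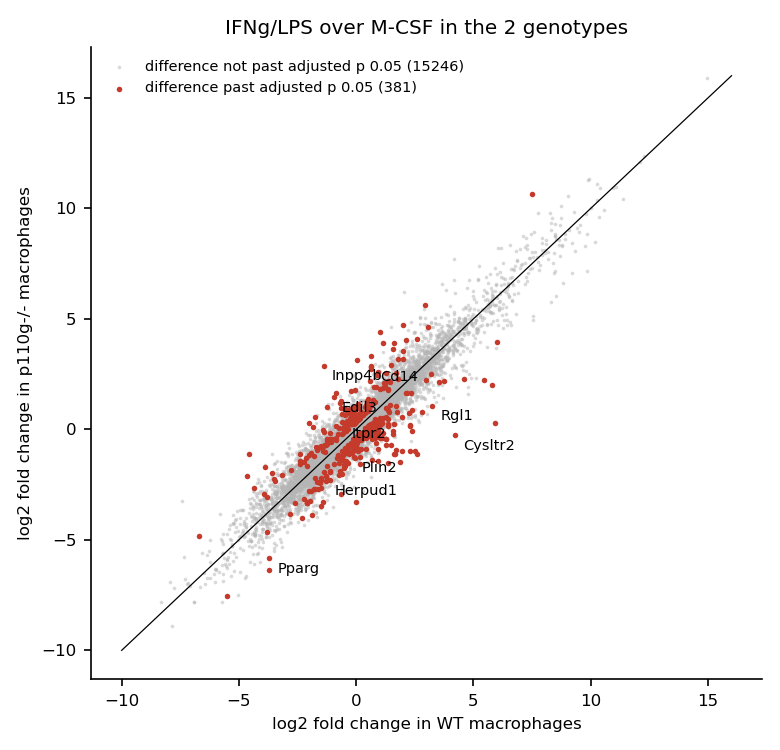
Each point is 1 of 15627 tested genes, with the log2 fold change of IFNg/LPS over M-CSF in WT on the horizontal axis and in p110g-/- on the vertical axis, and the line marks equal change. Red points are the 381 genes whose difference passed an adjusted p of 0.05, among them Cd14 above the line and Rgl1, Cysltr2 and Pparg below it.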

How the data were processed

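RNA was sequenced from 18 libraries of bone marrow-derived macrophages, 3 for each of 2 genotypes and 3 treatments, and the deposited table gives 1 normalised signal per gene and library. Per the submitters' processing notes, CASAVA 1.8.2, Bowtie2 and DESeq were used with the genome build mm9; the counting method and strand setting are not given in the sources used here. The signal values the authors deposited are whole reads divided by 1 factor per library, and 100% of values gave whole reads within a tolerance of 0.1. Genes that reached 10 in 3 or more libraries entered the test, on log2(value + 1) with limma 3.58.1 (R 4.3.3; trend and robust settings), with 6 group means over 18 libraries and Benjamini-Hochberg adjustment over all 15627 tested genes at 0.05. The difference between genotypes was the interaction contrast. Fold changes are on the log2(value + 1) scale, which understates the change of low genes. Count tests on the recovered reads called 11388 genes (edgeR 4.0.16) and 11389 (DESeq2 1.42.0) in the p110g-/- response.

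Genes were named by rule: preset genes, the 15 highest and 15 lowest fold changes, members of gene lists with the smallest p or against their list, the 10 clearest differences in each direction, the 10 widest ranges among IFNg/LPS libraries and the 10 highest signals. The members and lists were chosen with earlier results of these data known. Alternatives were another pseudocount, other filters, other scalings, other sets of libraries, a replicate block, limma without trend, count tests and leaving out each library. Scaling to library totals was added after seeing the data. Promoter windows came from RefSeq on GRCm38.p6 and were matched by gene identifier, without mixing coordinates with mm9. Some genes that the naming rule selects are not reported here.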

Additional observations from a re-analysis of the deposited data

Results flagged for a closer look

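The response to IFNg/LPS differed between p110g-/- and WT macrophages at 381 genes by the interaction test of limma (adjusted p under 0.05). Among the genes named above, the difference in log2 fold change, p110g-/- minus WT, was positive for Inpp4b (4.28), Il12b (3.13), Edil3 (2.41), Ktn1 (2.30), Cd14 (2.21), Apbb3 (1.85), Thbs1 (1.48), Tagap1 (1.37), Fam32a (1.09), Chd9 (0.82), Foxp4 (0.81), Itpr2 (0.81), Denr (0.69), Pfkm (0.57) and Tyk2 (0.43). It was negative for Cysltr2 (-4.46), Gm9199 (-3.69), Csrp1 (-2.76), Rgl1 (-2.17), Pparg (-2.11), March1 (-1.77), Cd300ld (-1.70), H60a (-1.49), Herpud1 (-1.06), Rnf149 (-0.97), Mbnl1 (-0.94) and B4galt5 (-0.85). The difference was also negative for Inpp4a of the PI3K list. The library labelled p110g-/- IFNg/LPS number 1, whose Pik3cg signal exceeded that of the WT libraries of its treatment, enters each of these values, and leaving it out gave 527 differing genes, without Il12b. The calls of Il12b, Pfkm, Tyk2, Thbs1 and Pparg were lost in 14, 10, 7, 6 and 3 of the alternative fits.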

How the results depend on the processing

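The number of genes that passed in the p110g-/- response stayed within 1.5 times of 11408 under each alternative, but scaling to library totals, chosen after seeing the data, left 3517 higher genes. The number of differing genes moved more: 211 with the 12 M-CSF and IFNg/LPS libraries alone, 1708 with libraries numbered 2 and 3 only, 845 with DESeq2 on recovered reads and from 183 to 633 when 1 library was left out. With the replicate number as a block, 716 genes differed and 11702 passed in the response. Deviations of same-numbered M-CSF and IFNg/LPS libraries correlated at 0.169, 0.163 and 0.028 in p110g-/- and at 0.256, 0.191 and 0.162 in WT. In WT every library correlated best with its own number, and in p110g-/- IFNg/LPS number 3 correlated better with M-CSF number 2 (0.072). This is a hint of shared numbers from the data and no known pairing, and 1 of the 6 correlations was under 0.1. The difference was lost in 14 alternative fits for Il12b, 10 for Pfkm, 7 for Tyk2, 6 for Thbs1 and 3 for Pparg. Scaling to totals turned the direction of the response of Calr (-0.20), Itpr2 (-0.12), Pik3cb (-0.25), Pik3cg (-0.24), Rn28s1 (-0.069) and Rn45s (-0.12). Centring libraries on their medians turned Pik3ca (0.019) and Pik3cd (0.035), and Pik3cg was -0.24 with numbers 2 and 3 only. Leaving out 1 library gave ranges that crossed 0 for Pik3cg (-0.21 to 0.48), Cysltr2 (-0.46 to 0.017), March1 (-0.43 to 0.011) and Pik3cd (-0.12 to 0.0078). Of these only Itpr2 had passed the test. The cause was not tested. Depth limits calls for the 674 tested genes with a p110g-/- group at or under 3 reads.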
